A study of Mus musculus with 6 samples.

Results

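The 43 genes described here mark T lymphocytes and natural killer (NK) cells, and were taken by gene symbol from the 20312 rows of an RNA sequencing table of mouse intestine. All 43 symbols were found. The 6 libraries came from mice of strain 129 aged 5 months. The 3 knockout libraries were from Apc min/+; Sirt7 -/- mice and the 3 control libraries from Apc min/+ mice, so the Apc min allele, which truncates Apc and gives intestinal adenomas, was carried by both groups. The study asked what loss of Sirt7, a nuclear NAD-dependent deacylase, does in this tumour-prone intestine. The labels do not give the gut region, the presence of tumour or the tissue in which Sirt7 was deleted, and do not say whether each library was a separate animal, so the p-values speak of the spread among these libraries, and that spread may be technical.

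T cells recognise antigen through a receptor whose signalling chains, the CD3 chains and CD247, are carried by every T cell. Ligation lets the kinase Lck, brought by the coreceptors CD4 or CD8, phosphorylate those chains, after which Zap70 and the adaptor Lat pass the signal on. In the intestine many T cells lie between the epithelial cells, where they hold granzymes, the integrin chain CD103 and often a CD8 made of alpha chains alone; the lamina propria is richer in CD4 T cells, with regulatory T cells among them. Peyer patches and smaller follicles add T cells beside many B cells.

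Values are normalised reads, that is, read counts divided by a size factor for each library, and depth was 24987313 to 27661396 recovered reads in the knockout libraries and 28123962 to 29603348 in the control libraries. The deleted gene was checked first. Sirt7 had 240.4, 224 and 219 normalised reads in the knockout libraries, against 2157, 2118 and 2244 in the control libraries, a difference of -3.25 ± 0.07 (log2, SE; adjusted p = 2.96e-20). Its groups did not overlap, with the lower values in the libraries labelled as knockout, and the knockout mean was 10.5% of the control mean. The test, limma, covered 16600 genes with at least 10 normalised reads in at least 3 libraries and took an adjusted p under 0.05 as a pass. Differences are knockout minus control on the log2(value + 1) scale. Changes were widespread: 62.5% of all tested genes passed in either direction, and the first component of the 6 libraries took 83.7% of the variance.

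Genes of T cells were lower in the knockout libraries almost throughout. Of the 43 members, 40 passed the filter on low values, 37 fell, 0 rose and 3 did not pass in limma, while 30.9% of all tested genes fell and 31.6% rose. The median difference of the 40 was -1.72, against a median of 0.01 over all tested genes. By over 2-fold, 36 members fell, where 6.88% of all tested genes did. In 36 of the 40 tested members every knockout library lay below every control library, against 33.1% of all tested genes, and this was also so in Eomes, which was not tested. Every tested member had a negative difference, so 0 also rose at an unadjusted p under 0.05, and 0 rose with edgeR or DESeq2. The signal summed over the members was 3876 to 4414 in the knockout libraries, against 12468 to 13199 in the control libraries, and its knockout mean was 32.5% of the control mean. In bulk tissue, fewer cells of a type and less RNA per cell cannot be told apart.

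The filter shaped a few of these calls. Sh2d1a and Gzmk passed it with all 3 control libraries at 10 or more and no knockout library there, and 6 members in all, these and Themis, Prf1, Klrk1 and Tbx21, had fewer than 3 knockout libraries at that level. With no filter, 37 of the 43 members fell, against 26.0% of all 20312 genes. The 3 members below the filter were Ncr1, Klrb1c and Eomes. In the authors' deposited table, which has its own test, 36 of the 43 members were lower in the knockout at an adjusted p under 0.05 and 0 higher. Of all 20312 rows, 4932 were lower and 5066 higher at that threshold.

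**Figure D1:**
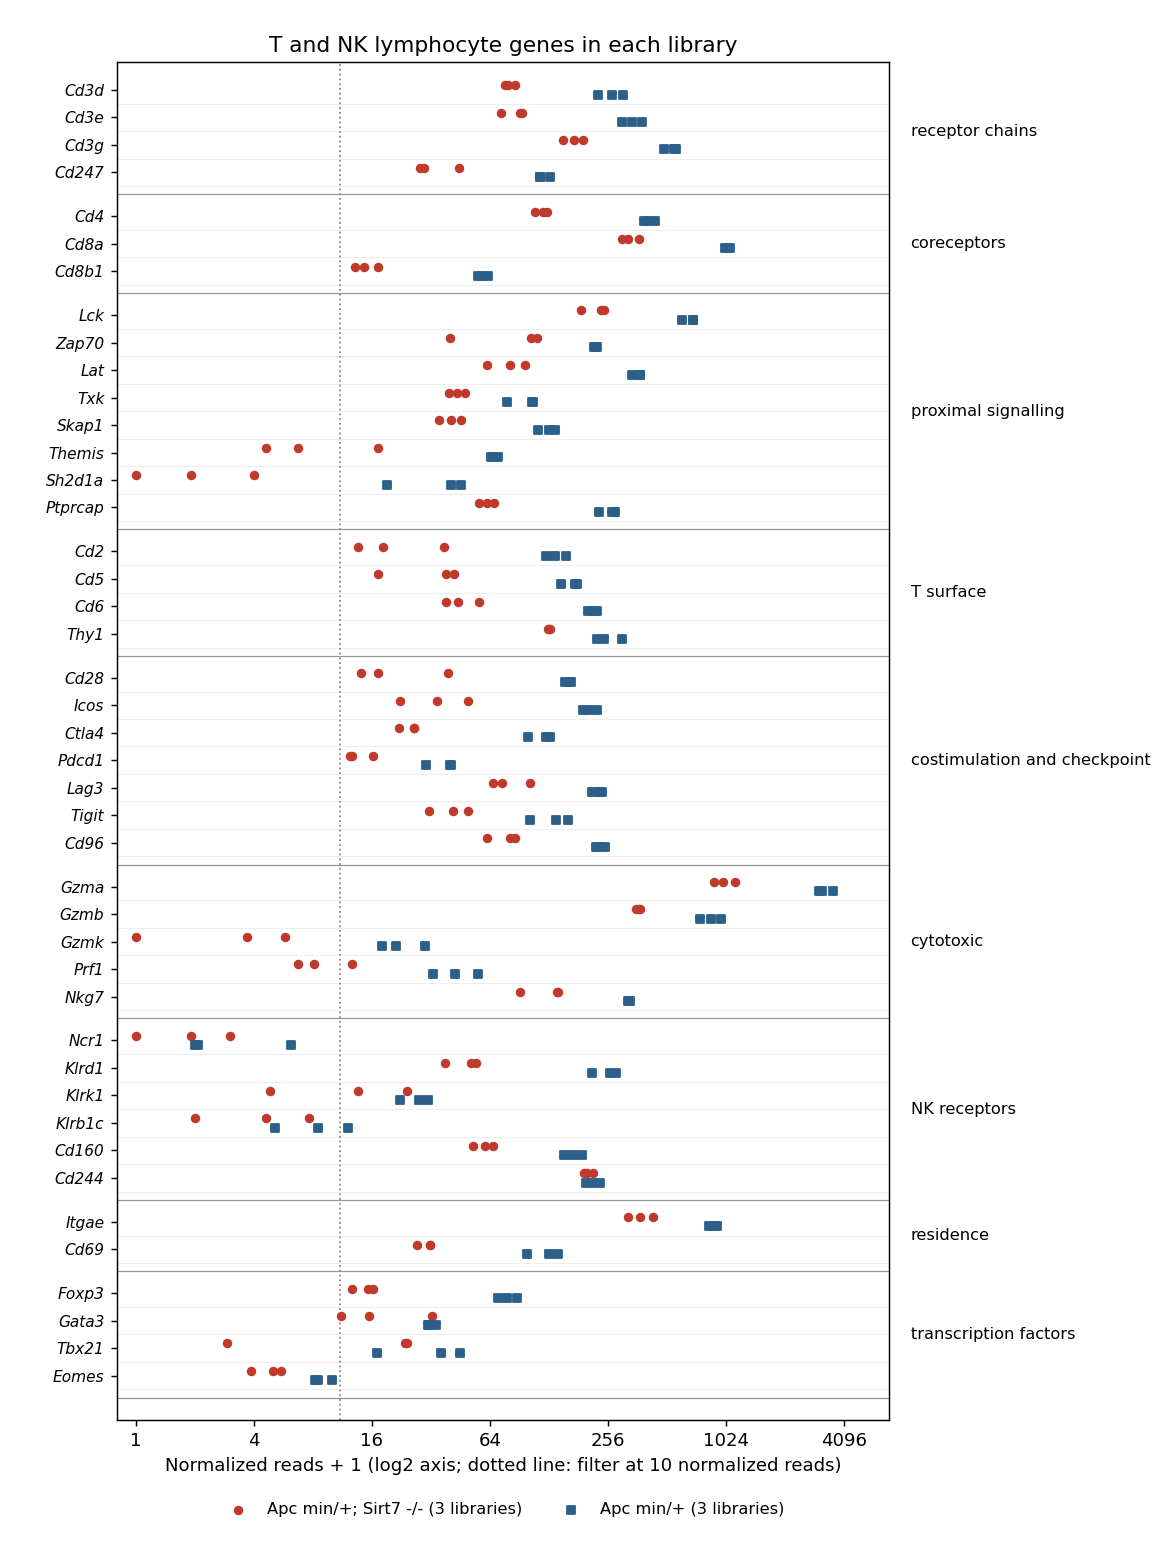
Normalised reads plus 1 of each of the 43 members on a log2 axis in the 3 knockout and 3 control libraries, 1 point per library, grouped by role. In 37 members all knockout points lie below all control points. Cd244 spans 192 to 215 in the knockout and 198 to 232 in the control libraries.

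The receptor chains fell together, at a median of -1.79. Cd3e, the epsilon chain, had 90.0, 71.6 and 92.5 normalised reads in the knockout libraries, against 341, 380.5 and 301 in the control libraries. Every knockout library lay far below the lowest control library, and the difference was -2.00 ± 0.15 (log2, SE; adjusted p = 4.44e-11). The knockout mean of Cd3e was 24.9% of the control mean. Cd3g, the gamma chain, had 149, 189.6 and 171 normalised reads in the knockout libraries, against 556, 567 and 498 in the control libraries. These groups were also far apart, with a difference of -1.67 ± 0.11 (log2, SE; adjusted p = 8.94e-12). Cd3d, the delta chain, averaged 79.6 ± 4.76 in the knockout libraries and 266 ± 38.5 in the control libraries (SD, n = 3 each), a difference of -1.72 ± 0.15 (log2, SE; adjusted p = 1.05e-09). The zeta chain Cd247, the longest signalling tail of the complex, fell by 1.85 on the log2 scale. Cd3g (chr9:44969572-44980431), Cd3d (chr9:44981786-44987339) and Cd3e (chr9:44998740-45009627) lie next to each other in mm10, with 1.35 kb and 11.4 kb between neighbours, while Cd247 (chr1:165788681-165877277) is on another chromosome. Against the mean of the 3 CD3 chains Cd247 stood at -0.06 ± 0.25, adjusted p = 0.825, which did not pass.

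The start sites of 4 members are shown because the results turn on them: Cd3d and Cd3e are CD3 chains, with which the other members were compared, Gzmb fell by less than the chains, and Cd244 did not pass. Each window runs from 250 bases before to 50 bases after the gene's start, 5′ to 3′ on the gene's strand, from RefSeq on GRCm38.p6 (mm10). Capitals mark 3 motifs of lymphocyte factors, searched on both strands. The ETS motif was ACTTCCT, which reads as AGGAAGT on the other strand. The RUNX motif was TGTGGT, which reads as ACCACA there, and the E-box was CACCTG, which reads as CAGGTG there.
Cd3d, chr9:44981536-44981835, plus strand: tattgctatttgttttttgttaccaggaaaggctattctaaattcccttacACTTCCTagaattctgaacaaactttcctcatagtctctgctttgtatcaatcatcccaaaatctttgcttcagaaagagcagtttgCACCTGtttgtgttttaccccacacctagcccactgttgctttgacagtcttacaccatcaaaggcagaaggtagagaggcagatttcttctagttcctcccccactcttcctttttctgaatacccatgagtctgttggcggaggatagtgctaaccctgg
Cd3e, chr9:45009562-45009861, minus strand: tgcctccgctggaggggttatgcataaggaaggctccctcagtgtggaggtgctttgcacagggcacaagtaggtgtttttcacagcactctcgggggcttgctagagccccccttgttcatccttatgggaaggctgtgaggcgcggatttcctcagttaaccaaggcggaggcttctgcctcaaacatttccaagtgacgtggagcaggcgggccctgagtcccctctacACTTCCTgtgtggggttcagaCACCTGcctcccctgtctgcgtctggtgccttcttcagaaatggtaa
Gzmb, chr14:56262285-56262584, minus strand: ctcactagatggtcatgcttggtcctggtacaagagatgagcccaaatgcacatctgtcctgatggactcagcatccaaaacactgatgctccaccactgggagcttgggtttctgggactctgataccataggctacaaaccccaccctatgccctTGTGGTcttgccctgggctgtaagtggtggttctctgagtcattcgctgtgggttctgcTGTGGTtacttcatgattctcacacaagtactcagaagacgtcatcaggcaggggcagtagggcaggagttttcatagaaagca
Cd244 (Cd244a in RefSeq), chr1:171558943-171559242, plus strand: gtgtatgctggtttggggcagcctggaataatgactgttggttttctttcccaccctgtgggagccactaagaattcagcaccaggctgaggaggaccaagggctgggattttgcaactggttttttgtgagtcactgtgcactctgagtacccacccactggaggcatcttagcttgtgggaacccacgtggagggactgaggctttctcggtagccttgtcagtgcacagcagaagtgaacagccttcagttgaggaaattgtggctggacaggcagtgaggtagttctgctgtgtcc

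The windows of Cd3d and Cd3e each hold 1 ETS and 1 E-box match, that of Gzmb holds 2 RUNX matches, and that of Cd244 holds none of the 3. Members that fell could also lack all 3: Cd8a, Themis, Pdcd1, Gzmk and Foxp3 had no match in their windows. Gata3, which did not pass, and Eomes, which was not tested, had no match either. Tbx21, which did not pass, had ETS and E-box matches. Cd3g, the remaining CD3 chain, had an E-box match but no ETS match. Whether the letters relate to the differences was not tested. RefSeq gave a window for 29 of the 43 members, 37 windows in all. The ETS letters were in 24.3% of the members' windows, against 9.35% of all 32851 mouse windows. RUNX letters were in 43.2% of the members' windows, against 16.8% of all, and E-box letters in 37.8%, against 20.2% of all. A match is a description of letters, not a site in use, and a window without one says only that those letters are not in it. The 3 motifs do not overlap one another in the printed windows.

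The coreceptors, which bind major histocompatibility complex molecules and carry Lck, all fell. Cd4 had 118, 125 and 108 normalised reads in the knockout libraries, against 391, 445 and 406 in the control libraries. The groups stood well apart, at -1.82 ± 0.12 (log2, SE; adjusted p = 9.28e-12). Cd8a had 324, 368 and 303 normalised reads in the knockout libraries, against 1048, 1075 and 1019 in the control libraries, a difference of -1.66 ± 0.08 (log2, SE; adjusted p = 4.40e-14). Its knockout libraries kept to the range of 303 to 368. Cd8b1, the beta chain of the CD8 heterodimer, averaged 13.9 ± 2.09 in the knockout libraries and 58.0 ± 3.75 in the control libraries (SD, n = 3 each), a difference of -1.99 ± 0.31 (log2, SE; adjusted p = 5.70e-06).

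Per kilobase of annotated exon, Cd8a stood at 91.2 ± 9.09 in the knockout libraries and 288 ± 7.68 in the control libraries. Cd4 stood at 29.0 ± 2.15 in the knockout libraries and 103 ± 6.83 in the control libraries, and Cd8b1 at 9.40 ± 1.41 in the knockout libraries and 39.1 ± 2.53 in the control libraries (normalised reads per kb, SD, n = 3 each). Cd8a was thus the highest of the 3 per length and Cd8b1 the lowest in both groups. The linear ratio of Cd8a to Cd4 was 2.75, 2.94 and 2.81 in the knockout libraries, against 2.68, 2.42 and 2.51 in the control libraries. These did not overlap, but 3 libraries against 3 cannot go below a two-sided exact permutation p of 0.1, which was the value here (0.175 adjusted over the 7 ratios computed). The ratio of Cd8b1 to Cd8a was 0.0417, 0.0329 and 0.0535 in the knockout libraries, against 0.0591, 0.0507 and 0.0563 in the control libraries, and overlapped (exact permutation p = 0.2, 0.233 adjusted).

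All 8 members that pass the receptor signal on inside the cell fell, at a median of -1.86. Lck, the kinase that starts signalling, had 186, 244 and 237 normalised reads in the knockout libraries, against 610.1, 700.0 and 695 in the control libraries, a difference of -1.59 ± 0.11 (log2, SE; adjusted p = 1.22e-11). The adaptor Lat, which gathers the next signalling proteins at the membrane, had 61.2, 95.8 and 80.1 normalised reads in the knockout libraries, against 374, 339.9 and 374 in the control libraries. The groups were far apart, at -2.20 ± 0.16 (log2, SE; adjusted p = 2.11e-11). Zap70, the kinase recruited to the CD3 chains, was uneven: the third knockout library had 39.1 normalised reads, against 111 and 103 in the others and 217 to 225 in the control libraries. Its difference was -1.52 ± 0.36 (log2, SE; adjusted p = 0.00612).

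Themis, an adaptor needed for thymocyte selection, and Sh2d1a, the adaptor SAP that serves SLAM-family receptors, had the lowest differences of this group. Themis averaged 8.49 ± 6.71 in the knockout libraries and 66.6 ± 2.52 in the control libraries (SD, n = 3 each), at -3.06 ± 0.41 (log2, SE; adjusted p = 1.02e-06). Sh2d1a rested on 4 reads in the 3 knockout libraries and 98 in the 3 control libraries, so that its knockout level was 3.75% of control with an exact 95% counting interval of 1.00 to 9.92%. Txk, a Tec-family kinase, fell by 1.14, the least of this group, Skap1, an adaptor of integrin activation, by 1.65, and Ptprcap, a partner of CD45, by 2.07 on the log2 scale.

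The surface proteins of T cells fell by unequal amounts. Thy1, a GPI-anchored glycoprotein also made by neurons and stromal cells, had 128, 126 and 129 normalised reads in the knockout libraries, against 225, 245 and 301 in the control libraries. Its groups did not overlap, but the difference of -0.99 ± 0.14 (log2, SE; adjusted p = 1.45e-06) was under 2-fold. Cd6, a scavenger-receptor family member that binds ALCAM, had 43.2, 37.3 and 55.3 normalised reads in the knockout libraries, against 216, 223 and 202 in the control libraries, at -2.23 ± 0.18 (log2, SE; adjusted p = 3.37e-10). Its neighbour Cd5, a relative that dampens receptor signalling, lies 50.3 kb away on chromosome 19 and fell by 2.46 on the log2 scale. Cd2, the adhesion receptor for CD48 in mice, averaged 22.0 ± 12.5 in the knockout libraries and 138 ± 16.7 in the control libraries (SD, n = 3 each), at -2.73 ± 0.30 (log2, SE; adjusted p = 5.33e-08).

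All 7 costimulatory and checkpoint receptors fell, at a median of -1.72. Cd96, a receptor for the poliovirus receptor, had 61.2, 84.7 and 80.1 normalised reads in the knockout libraries, against 247, 229 and 223 in the control libraries. The difference was -1.63 ± 0.16 (log2, SE; adjusted p = 7.08e-09). Lag3, an inhibitory receptor that lies beside Cd4 with 16.1 kb between them on chromosome 6, had 65.7, 72.6 and 101 normalised reads in the knockout libraries, against 231, 238 and 212 in the control libraries, at -1.52 ± 0.17 (log2, SE; adjusted p = 4.38e-08). Tigit, which competes with Cd226 for the same ligand as Cd96, fell by 1.72 and Pdcd1, the PD-1 receptor, by 1.42 on the log2 scale.

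The 3 lowest differences of this group were those of Cd28, Icos and Ctla4. They share a stretch of chromosome 1, where Cd28, Ctla4 and Icos lie in that order with 114 kb and 62.1 kb between them. Cd28, the main costimulator, averaged 22.5 ± 13.7 in the knockout libraries and 161 ± 6.28 in the control libraries, at -2.93 ± 0.30 (log2, SE; adjusted p = 3.40e-08). Icos, a costimulator of helper T cells in follicles, averaged 34.4 ± 13.8 in the knockout libraries and 206 ± 16.7 in the control libraries, at -2.62 ± 0.24 (log2, SE; adjusted p = 2.15e-09). Ctla4, the inhibitory receptor that regulatory T cells carry at high level, averaged 23.8 ± 2.44 in the knockout libraries and 117 ± 15.5 in the control libraries (SD, n = 3 each in this and the 2 genes before), at -2.24 ± 0.23 (log2, SE; adjusted p = 1.78e-08).

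The cytotoxic genes fell too, all 5 of them. Gzma, a granule protease and the most abundant member per length, had 894, 1147 and 996 normalised reads in the knockout libraries, against 3597, 3169 and 3056 in the control libraries. The groups did not overlap, at -1.70 ± 0.08 (log2, SE; adjusted p = 2.08e-11). Gzmb, the protease that sets off caspases in target cells, had 356, 370.1 and 371 normalised reads in the knockout libraries, against 862, 973 and 753 in the control libraries, a difference of -1.23 ± 0.09 (log2, SE; adjusted p = 3.38e-11). Per kilobase of exon, Gzma stood at 1006 ± 126 in the knockout libraries and 3254 ± 284 in the control libraries, and Gzmb at 255 ± 5.99 in the knockout libraries and 601 ± 76.3 in the control libraries (normalised reads per kb, SD, n = 3 each). Nkg7, a granule membrane protein, fell by 1.42, and Prf1, the pore-forming perforin, by 2.27 on the log2 scale. Gzmk, a granzyme of memory T cells, rested on 8 reads in the knockout and 64 in the control libraries, a knockout level of 11.5% of control (exact 95% counting interval 4.76 to 24.0%).

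The NK part of the set could not be read from its defining genes. Ncr1, the NKp46 receptor, had 0.900, 2.02 and 0 normalised reads in the knockout libraries, against 5.16, 1.07 and 1.01 in the control libraries. Klrb1c, which encodes the NK1.1 antigen in C57BL/6 mice, had 3.60, 1.01 and 6.68 normalised reads in the knockout libraries, against 4.13, 7.48 and 11.1 in the control libraries. Both stayed below the filter and overlapped between the groups, so the genes that define NK cells were near the detection limit in either genotype. The receptors that follow are also carried by intestinal T cells. Strain 129 does not display that antigen, and how far strain sequence affects the reads of Klr genes was not tested.

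Among those receptors, Klrd1, the CD94 chain that pairs with NKG2 proteins, had 36.9, 50.4 and 53.4 normalised reads in the knockout libraries, against 279.8, 261 and 212 in the control libraries. The groups stood well apart, at -2.40 ± 0.18 (log2, SE; adjusted p = 9.07e-11). Cd160, a receptor for HVEM on intraepithelial lymphocytes, averaged 58.9 ± 7.13 in the knockout libraries and 170.0 ± 18.3 in the control libraries (SD, n = 3 each), at -1.51 ± 0.18 (log2, SE; adjusted p = 1.11e-07); it overlaps the epithelial gene Pdzk1, which fell by 0.83 on the log2 scale. Klrk1, the NKG2D receptor, lies 11.5 kb from Klrd1 and averaged 13.2 ± 9.70 in the knockout libraries and 26.0 ± 4.45 in the control libraries (SD, n = 3 each), at -1.20 ± 0.49 (log2, SE; adjusted p = 0.0374). Its groups overlapped, and its call was lost with edgeR and DESeq2 on recovered reads, at -0.97 and -0.98, and without the third knockout, the first control or the second control library, with differences of -0.56 to -1.72 when any 1 library was left out.

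Cd244, the SLAM-family receptor 2B4, was the exception among the well-expressed members. It had 215, 192 and 200.3 normalised reads in the knockout libraries, against 232, 211 and 198 in the control libraries. The groups overlapped, and the difference of -0.08 ± 0.12 (log2, SE; adjusted p = 0.612) did not pass. It overlaps Ly9, another SLAM-family gene on the other strand, which averaged 36.0 ± 6.41 in the knockout libraries and 234 ± 18.8 in the control libraries (SD, n = 3 each) and fell by 2.68 on the log2 scale; reads of overlapping genes cannot be told apart when the strand setting is not stated.

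Both genes of tissue residence fell. Itgae, the CD103 integrin chain that binds E-cadherin on epithelial cells, had 325, 373 and 434 normalised reads in the knockout libraries, against 919.8, 842 and 885 in the control libraries. The difference was -1.23 ± 0.09 (log2, SE; adjusted p = 7.78e-11). Itgae overlaps Haspin, which the files list as Gsg2 and which averaged 202 ± 5.28 in the knockout libraries and 142 ± 9.58 in the control libraries (SD, n = 3 each). Cd69, which keeps lymphocytes from leaving tissue, had 30.6, 26.2 and 30.5 normalised reads in the knockout libraries, against 142, 98.3 and 127 in the control libraries, at -2.02 ± 0.23 (log2, SE; adjusted p = 5.28e-08).

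Of the 3 transcription factors tested, 1 fell. Foxp3, the factor that defines regulatory T cells, had 11.7, 15.1 and 14.3 normalised reads in the knockout libraries, against 69.2, 76.9 and 87.6 in the control libraries. Its groups did not overlap, at -2.42 ± 0.29 (log2, SE; adjusted p = 1.35e-07), and the knockout mean was 17.6% of the control mean. Gata3, a factor of type 2 helper T cells and innate lymphoid cells, had 14.4, 10.1 and 31.5 normalised reads in the knockout libraries, against 33.0, 29.9 and 30.2 in the control libraries. The third knockout library lay among the control values, and the difference of -0.86 ± 0.39 (log2, SE; adjusted p = 0.0592) did not pass; without the second knockout library it was -0.52 and did not pass, and without the third it was -1.29 and passed, as it did at -1.05 with quantile scaling and at -0.59 with a pseudocount of 10.

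Tbx21, the T-bet factor of type 1 T cells and NK cells, had 22.5, 23.2 and 1.91 normalised reads in the knockout libraries, against 35.1, 16.0 and 44.3 in the control libraries. The groups overlapped and the third knockout library held almost none, so -1.36 ± 0.77 (log2, SE; adjusted p = 0.154) did not pass; it was -0.35 without that library, and passed at -1.85 and -1.87 without the first or the second knockout library. Eomes, a relative of T-bet in NK and memory T cells, had 4.50, 4.03 and 2.86 normalised reads in the knockout libraries, against 7.23, 7.48 and 9.06 in the control libraries. It was below the filter and not tested, though all knockout libraries were below all control libraries.

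The members were then set against the CD3 chains, by testing each gene's log2 value minus the library's mean over Cd3d, Cd3e and Cd3g. That mean was 6.67 to 6.80 in the knockout libraries and 8.42 to 8.60 in the control libraries, a difference of -1.80. Of 37 members tested so, 9 were lower than the CD3 chains, 7 were higher and 21 did not pass. The 9 include Sh2d1a, which the filter kept through its control libraries alone, and 8 remain without it. Over all 16597 genes, 1.23% were lower and 94.9% higher. The 3 chains are shared by every gene's value, so an error in them moves all genes alike and these p-values may be too small.

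The members that fell by more than the CD3 chains under every alternative run were Cd28, Icos and Cd2. Relative to the chains, Cd28 stood at -1.14 ± 0.26 (adjusted p = 1.19e-05), Icos at -0.83 ± 0.22 (adjusted p = 0.000209) and Cd2 at -0.93 ± 0.27 (adjusted p = 0.000545) in log2 with SE. Icos stood at -0.55 without the second knockout library. Themis (-1.27 ± 0.39, adjusted p = 0.00124) lost the call with a pseudocount of 10, where it stood at -0.40. Sh2d1a, with its 4 knockout reads, stood at -2.26, but at -0.20 with a pseudocount of 10. Klrd1 (-0.60 ± 0.20, adjusted p = 0.00235) lost it against Cd3e alone or a pan-leukocyte mean. Lat, Cd5 and Cd6 were lower by 0.41, 0.67 and 0.44 and lost the call without the first knockout library, at -0.26, -0.28 and -0.43. All 3 also lost it against Cd3e alone, at -0.21, -0.46 and -0.23, and against the pan-leukocyte mean, at -0.15, -0.41 and -0.18. Lat lost it too without the third control library, and Cd6 without the second knockout library, without any 1 control library and with a pseudocount of 10.

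The members that fell by less under every alternative run were Gzmb at 0.57 ± 0.11 (adjusted p = 2.44e-07), Itgae at 0.56 ± 0.11 (adjusted p = 2.37e-07), Thy1 at 0.80 ± 0.16 (adjusted p = 7.63e-07) and Txk at 0.65 ± 0.25 (adjusted p = 0.00861), together with Cd244, which had not fallen and stood at 1.72 ± 0.15 (adjusted p = 4.17e-29). Gzmb and Itgae are both genes of intraepithelial T cells. Gzma, Cd8a and Cd160, which such cells also carry, did not pass relative to the chains, at 0.10, 0.14 and 0.28. Other cells also make some of the members that stood higher: mast cells make Gzmb and Cd244, dendritic cells make Itgae, and stromal cells make Thy1. Mast cell and eosinophil genes were summed at 2335 to 2842 in the knockout libraries, against 845 to 977 in the control libraries. Of the 6 of these genes tested 5 rose and 1, Prg2, fell. Macrophage and dendritic genes were summed at 6289 to 6414 in the knockout libraries, against 10348 to 10777 in the control libraries. Lyz2 alone averaged 2852 in the knockout and 5308 in the control libraries, so this sum says little of dendritic cells. Of these 15 genes 10 fell, 1 rose and 4 did not pass. For stromal and vessel genes the sum was 32343 to 34082 in the knockout libraries, against 36854 to 39678 in the control libraries. That sum hides opposite changes, since 5 of these genes rose and 4 fell. The collagen genes Col1a1 and Col3a1 stood at 1.75 and 1.02 (log2, knockout minus control), and the abundant muscle gene Myh11 at -0.66. The part of these other cells in the members' values was not tested. Nkg7 (0.37 ± 0.16, adjusted p = 0.0171) lost the call without the second or the third knockout library, or without the first or second control library, with differences down to 0.24, and Gata3 (0.94 ± 0.39, adjusted p = 0.0156) lost it without the third knockout library, at 0.54. Relative to the chains, Cd4 stood at -0.02 ± 0.15 (adjusted p = 0.896), Cd8a at 0.14 ± 0.11 (adjusted p = 0.211) and Gzma at 0.10 ± 0.09 (adjusted p = 0.262), none of which passed. Without the third knockout library Cd8a, Zap70, Klrk1 and Tbx21 passed as higher, at 0.24, 0.79, 1.28 and 1.49. Lck passed as higher without the first knockout or the third control library, at 0.31 and 0.28. Against Cd3e alone Lck, Zap70 and Lag3 also passed as higher, at 0.41, 0.48 and 0.48. Against the pan-leukocyte mean Cd8a, Gzma and Lck passed as higher, at 0.39, 0.35 and 0.46. With that reference Lag3, Cd96 and Cd160 passed too, at 0.53, 0.42 and 0.54. Gzmk, kept by the filter through its control libraries alone, is not called. It stood at -1.23, at -0.52 to -1.72 when any 1 knockout library was left out and at 0.34 with a pseudocount of 10. Gzmk passed as lower without the first or the third knockout library, at -1.46 and -1.72. It also passed with no filter, at -1.23, and with a pseudocount of 0.5, at -1.64. Foxp3 stood at -0.63 ± 0.33 (adjusted p = 0.0576) and did not pass, but passed without the second knockout library, at -0.72; it stood at -0.18 with a pseudocount of 10.

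**Figure D2:**
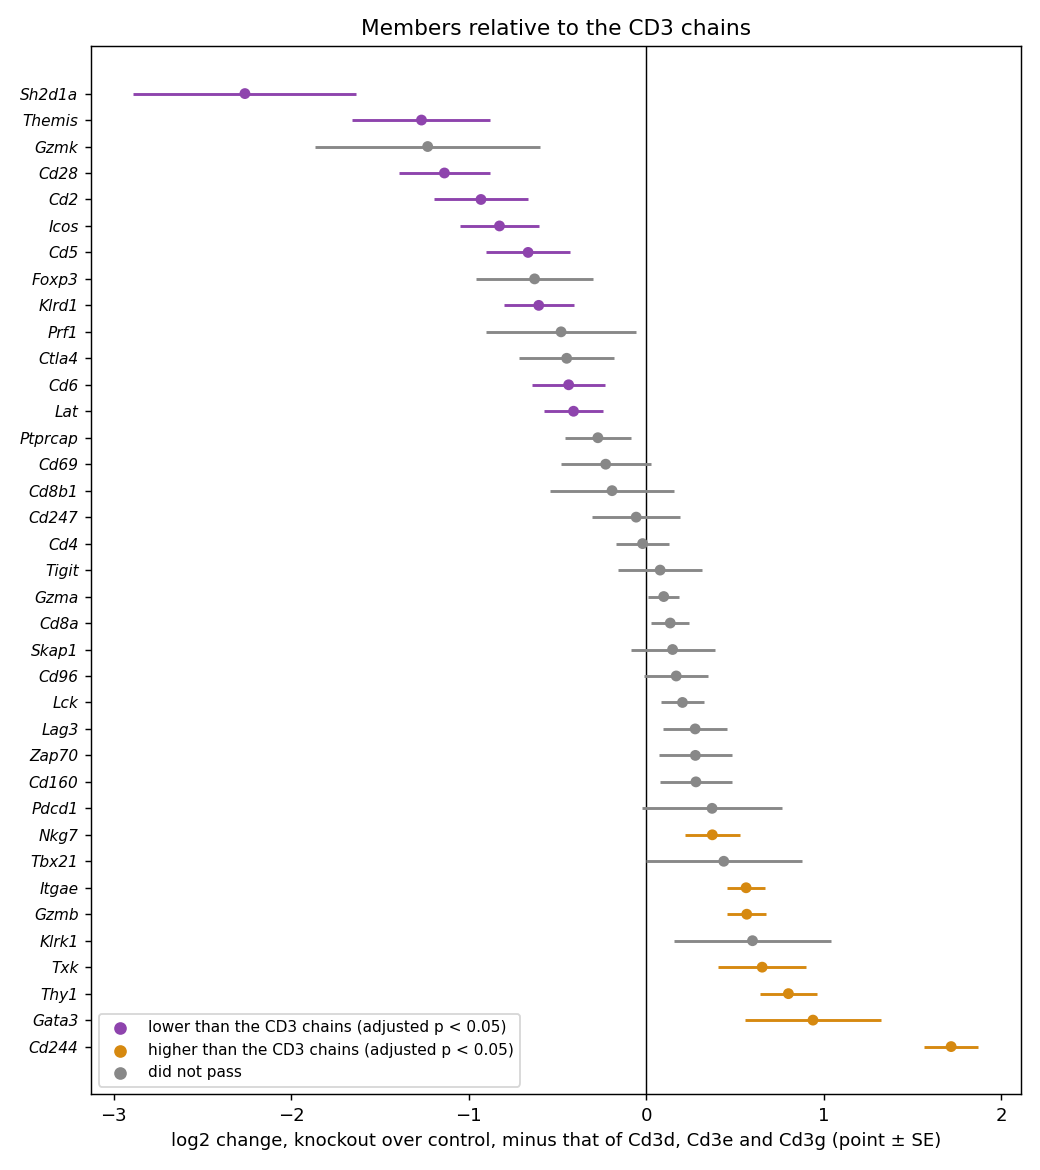
Difference of each tested member from the mean of the 3 CD3 chains, knockout minus control on the log2(value + 1) scale, with bars of 1 SE. Points left of 0 are lower than the CD3 chains, with Sh2d1a, which rests on 4 knockout reads, lowest at -2.26, and points right of 0 are higher, with Cd244 highest at 1.72; colours mark those that passed.

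Ratios of gene pairs within a library, in which scaling cancels, need no mean over chains. The linear ratio of Foxp3 to Cd4 was 0.0992, 0.121 and 0.133 in the knockout libraries, against 0.177, 0.173 and 0.216 in the control libraries. Gzmb to Cd8a was 1.10, 1.01 and 1.22 in the knockout libraries, against 0.823, 0.905 and 0.739 in the control libraries. Itgae to Cd3e was 3.61, 5.21 and 4.69 in the knockout libraries, against 2.70, 2.21 and 2.94 in the control libraries. In each of these the groups did not overlap, and the exact permutation p was 0.1, the smallest that 3 against 3 allows (0.175 adjusted). With a pseudocount of 10 the log2 difference of Foxp3 to Cd4 went to -0.15 in place of -0.61, with an exact permutation p of 0.4. Ncr1 to Cd3e rested on 3 Ncr1 reads in the knockout and 7 in the control libraries and overlapped (exact permutation p = 0.2). By contrast Cd3e to Ptprc, the CD45 gene of all leukocytes, was 0.101, 0.0748 and 0.0977 in the knockout libraries, against 0.0921, 0.0968 and 0.0786 in the control libraries, and overlapped (exact permutation p = 0.7). Cd3e fell the most of the 3 CD3 chains. Against the mean of the 3 chains Ptprc was lower in limma, at -0.24 ± 0.09 (log2, SE, adjusted p = 0.00699).

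**Figure D3:**
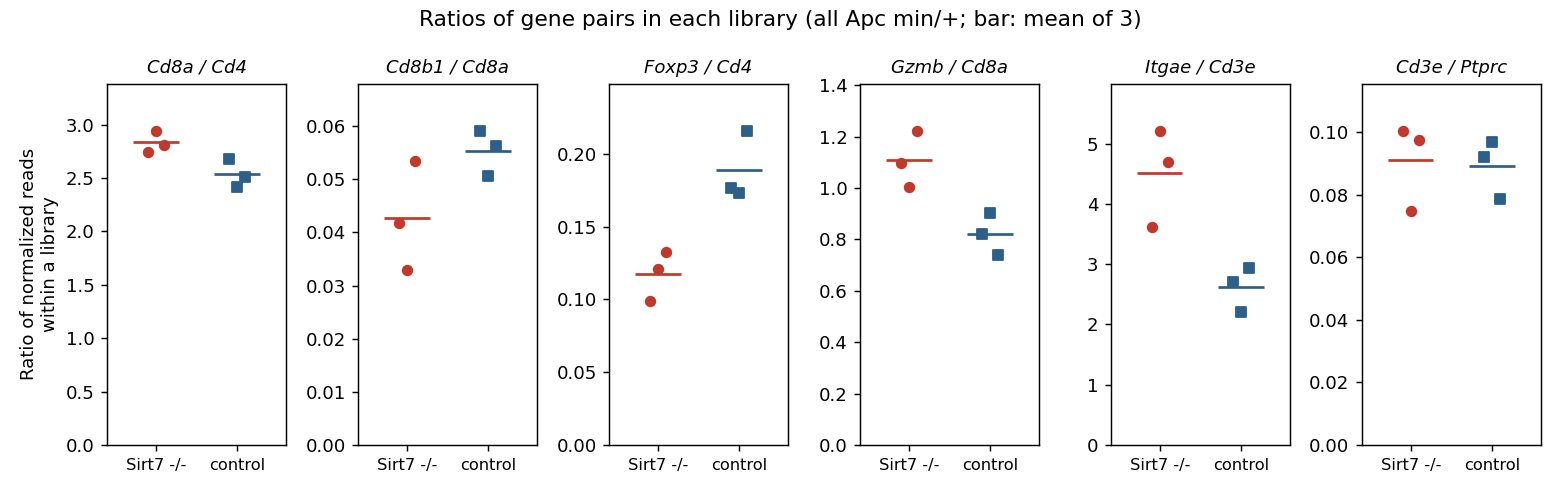
Linear ratio of normalised reads of a pair of genes in each library, knockout libraries left of control libraries, axes from 0, 1 point per library and a bar at the mean. Cd8a to Cd4, Gzmb to Cd8a and Itgae to Cd3e are higher and Foxp3 to Cd4 lower in all 3 knockout libraries, while Cd8b1 to Cd8a and Cd3e to Ptprc overlap.

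Most other genes of the same pathways fell too, as counted over lists written with earlier results of these data known. At the median most of these lists fell by less than the members, which stood at -1.72. Over all tested genes 30.9% fell and 31.6% rose. Of 26 further genes of T cell receptor signalling, 21 fell, 2 rose and 3 did not pass, at a median of -0.94; many of these are made by other cells too. Ptprc, whose CD45 phosphatase activates Lck, averaged 933 ± 32.7 in the knockout libraries and 3820.3 ± 116 in the control libraries, Ptpn6, the SHP-1 phosphatase, 882 ± 42.5 in the knockout libraries and 1858 ± 56.9 in the control libraries, and the adaptor Fyb 445 ± 13.2 in the knockout libraries and 968 ± 55.3 in the control libraries (SD, n = 3 each). Their differences were -2.03 ± 0.05, -1.08 ± 0.06 and -1.12 ± 0.07 (log2, SE). Constant segments of the T cell receptor were looked for by 10 symbols, of which 0 were found among the rows, so they could not be tested.

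Of 17 further transcription factors used by T cells, 13 fell, 2 rose and 2 did not pass, at a median of -0.60. Among those with the smallest p, Ikzf1, the lymphoid factor Ikaros, stood at -2.39 ± 0.09 and Ets1 at -1.18 ± 0.06. Of 10 companions of regulatory T cells 7 fell and 3 did not pass, at a median of -0.69. Among them were Ikzf2, the Helios factor, at -1.80 ± 0.15 and Il2ra, the high-affinity interleukin-2 receptor chain, at -1.94 ± 0.27. Nt5e, also made by epithelium, fell by 0.40. Of 13 cytotoxic companions 9 fell and 1 rose, at a median of -1.21. The chemokine Ccl5 stood at -1.87 ± 0.10, the granule proteoglycan Srgn at -1.38 ± 0.08 and the protease Ctsw at -1.24 ± 0.12. Of 8 NK companions 6 fell and 1 rose, at a median of -1.10. Il2rb stood at -1.72 ± 0.15 and Klre1 at -3.19 ± 0.50, while Itga2, an integrin that epithelium and stroma also make, rose by 2.23 (log2, SE).

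Receptors that bring lymphocytes into tissue fell in 14 of 15 cases, at a median of -1.89. Itga4, the chain that binds the gut addressin with Itgb7, stood at -2.10 ± 0.08, and Cxcr4, the receptor for Cxcl12, at -1.89 ± 0.10. Ccr7, the lymph node receptor of naive T cells and chosen after its values were seen, averaged 15.3 ± 9.48 in the knockout libraries and 167 ± 9.66 in the control libraries (SD, n = 3 each), at -3.52 ± 0.31 (log2, SE), and was lower than the CD3 chains by 1.72. Of 20 tissue ligands for these cells 15 fell, 1 rose and 4 did not pass, at a median of -0.45. The chemokine Ccl28 stood at -2.11 ± 0.06 and Ccl25, the ligand of the gut-homing receptor Ccr9, at -0.92 ± 0.04. Btnl1, a butyrophilin-like protein that sustains intraepithelial gamma delta T cells, stood at -0.75 ± 0.04.

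Markers of other cell types moved with the members, and their part in the members' fall was not tested. All 13 pan-leukocyte genes fell, at a median of -2.03, with a summed level of 3652 to 3980.4 in the knockout libraries, against 15447 to 16057 in the control libraries. Relative to the CD3 chains 7 of these 13 were lower and 1 was higher, where 1.23% of all genes were lower and 94.9% higher. All 13 B cell genes fell, at a median of -3.77, with a summed level of 1806 to 2259 in the knockout libraries, against 10172 to 11095 in the control libraries, and 12 of them were lower than the CD3 chains. All 10 genes tested of follicles and Peyer patches fell, at a median of -2.59, with a summed level of 1277 to 1418 in the knockout libraries, against 5117 to 5589.8 in the control libraries; Cxcl13, the chemokine that draws B cells into follicles, stood at -2.91 ± 0.11 (log2, SE).

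Genes of other cell types moved to differing extents. Of 15 macrophage and dendritic cell genes 10 fell, 1 rose and 4 did not pass, at a median of -0.58; 14 were higher than the CD3 chains, where 94.9% of all genes were. Of 7 plasma cell genes 6 fell and 1, Sdc1, which epithelium also makes, rose, at a median of -1.81, close to the -1.72 of the members. Of 6 mast cell and eosinophil genes 5 rose and 1 fell. Of 5 neutrophil genes 4 rose, with a summed level of 276 to 328 in the knockout libraries, against 82.6 to 90.6 in the control libraries; S100a9, a calcium-binding alarmin of neutrophils, averaged 114 ± 30.1 in the knockout libraries and 1.07 ± 1.85 in the control libraries (SD, n = 3 each). Epithelial genes fell in 6 of 9 cases and rose in 2, with a median of -0.30 and 0 by over 2-fold, but with quantile scaling 4 fell and 4 rose. Stromal and vessel genes fell in 4 of 9 cases and rose in 5. Of 5 innate lymphoid genes 2 fell and 2 rose.

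**Figure D4:**
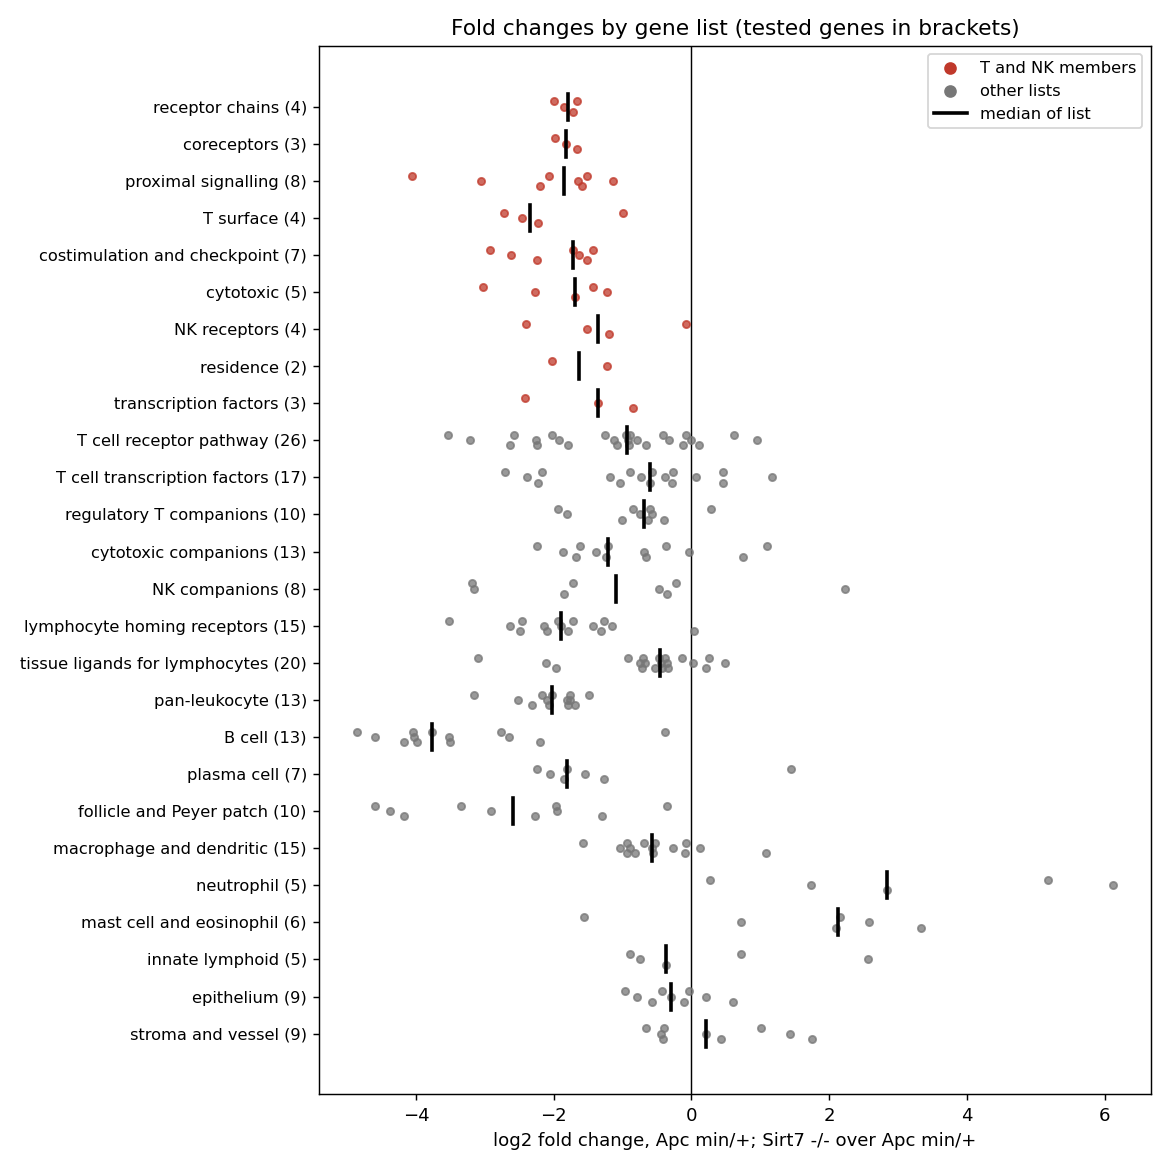
Log2 differences of the tested genes in the members' role groups and in lists of related genes and other cell types, knockout minus control, with a point per gene and a bar at each median. The member groups lie between medians of -2.35 and -1.36, B cell genes lie lower at -3.77, and macrophage and dendritic genes lie nearer 0 at -0.58.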

How the data were processed

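Per the labels' protocols, Trizol RNA went into Illumina TruSeq libraries. The submitters' processing notes name DESeq2, HTSeq 0.6.1p1, TopHat2 2.1.1, TopHat and FastQC on mm10, with no roles, order or strand setting. The authors' deposited table gave a signal per gene and library, which was the read count over 1 size factor per library, not scaled by gene length. Per the file headers, the authors also gave log2 fold changes, their standard errors, Wald statistics (a score of no fixed range) and raw and adjusted p-values.

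All values in each column were whole multiples of 1 step (tolerance 0.01), which gave whole reads back; in 2 columns the step lay close to 1. In 23 rows a date stands in place of a gene name, and these stayed unnamed. The groups were compared with limma 3.58.1 in R 4.3.3 on log2(value + 1), a scale that understates the change of low genes, with trend and robust estimation and Benjamini-Hochberg adjustment over all tested genes. The same limma fit was run on log2 values less the library's mean over Cd3d, Cd3e and Cd3g. Ratios had exact two-sided permutation tests, adjusted over 7. Script steps were tested on simulated data. Alternatives were edgeR 4.0.16 and DESeq2 1.42.0 on recovered reads, other scalings, filters, pseudocounts and reference genes, a replicate block and leaving out each library. Counting intervals cover counting error only, since reads lacking molecular identifiers do not count separate molecules. Within a group, every pair of libraries differed beyond sampling noise (chi-square averaging 3.75 to 7.21 per gene), and all 6 were kept as separate libraries.

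The members and all lists were chosen with earlier results of these data known. Values in every library are given for Cd3e, Cd4, Cd8a, Foxp3 and Gzmb, for the 2 members of each role with the highest mean, and for members that did not fall; up to 3 genes per other list, by smallest p, are named, and a few that the rule picked are not reported here. Genes overlapping a member were named for that overlap. Gene positions are from GENCODE vM21 (mm10), which matched 43 of 43 members, Cd244 as Cd244a. Promoter windows are from RefSeq on GRCm38.p6. No protein sequences were used here.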

Additional observations from a re-analysis of the deposited data

How the results depend on the processing

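The count of members that fell was 36 to 38 when any 1 library was left out, 36 with edgeR or DESeq2 on recovered reads, 38 with quantile scaling and 32 with a filter at 50, which tests fewer genes, and 0 rose under any alternative run. Of the values of single members under alternatives, 623 kept their direction and side of the threshold, 5 (all Klrk1) lost the call, 5 (Gata3 and Tbx21) gained it and 0 reversed. Over all genes 4731 to 5489 fell and 4751 to 5469 rose. Another scaling moved the median of all genes to 0.03 (TMM) or -0.05 (quantile), a shift under 0.1, but quantile scaling moved abundant genes by more: Nt5e stood at -0.20 in place of -0.40, Btnl1 at -0.48 in place of -0.75 and Ccl25 at -0.67 in place of -0.92.

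Relative to the CD3 chains, 7 to 10 members were lower and 6 to 9 higher when any 1 library was left out. With Cd3e alone as reference 5 were lower, and with the pan-leukocyte mean 5 were lower and 14 higher, since that reference fell by more. The log2 ratio of Cd8b1 to Cd8a, -0.33, became 0.13 with a pseudocount of 10, and that of Foxp3 to Cd4, -0.61, became -0.15. The log2 ratio of Cd3e to Ptprc, 0.03, ranged from -0.054 to 0.17 when any 1 library was left out. The causes were not tested.

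The labels do not say whether replicate numbers pair the libraries. Deviations of same-numbered libraries correlated at -0.006 to 0.036 and those of other pairs at -0.028 to 0.026. These values show no shared pattern by number, but cannot tell whether the libraries were paired. With the replicate number as a block, 37 members fell, 9 were lower and 7 higher than the CD3 chains, and 5151 genes fell and 5251 rose in all. Depth limits Ncr1, Klrb1c, Eomes, Sh2d1a and Gzmk, whose knockout libraries held 12 reads or fewer in all.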
